A study of Mus musculus with 2 samples.

Results

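Cycling progenitor cells marked by Angpt1, the gene of angiopoietin-1, were examined in 2 single-cell libraries of mouse bone marrow, 1 from Phf6 knockout (KO) cells and 1 from wild-type (WT) cells. The members are cells with at least 5 Angpt1, 3 Top2a and 3 Mki67 unique molecular identifiers (UMIs, counted RNA molecules), fewer than 10 Mpo UMIs per 10000, fewer than 3 Pf4 UMIs and fewer than 3 of the 5 erythroid genes Car1, Klf1, Ermap, Rhd and Rhag detected. They number 416 of 9632 cells kept after filtering: 234 of 4930 KO cells and 182 of 4702 WT cells. Both groups carried the same vector, which expresses the RUNX1-S291fs mutant together with GFP. Bone marrow cells that had taken it up were sorted by GFP and placed in recipient mice, and 8 weeks later GFP+Lin- cells (without mature lineage markers) were sorted from the recipients' marrow for 10x Genomics 3′ single-cell RNA sequencing. The comparison is thus of Phf6 loss on a background of mutant RUNX1 in both groups, and no cells without the vector were analysed here. The age of the mice, the number of recipients and the way the Phf6 gene was deleted are not given in the sources used here, nor is whether cells of several recipients were pooled. With 1 library per genotype there is no error between mice, no test was possible, and every interval is a 95% interval that covers counting error only, exact unless named otherwise.

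Haematopoietic stem cells and multipotent progenitors sit at the top of blood formation and are mostly out of cycle, with a minority in S phase, G2 or mitosis at any time. Angpt1 is made by early progenitors as well as by niche cells and encodes a ligand of the receptor Tie2 (gene Tek). Top2a encodes DNA topoisomerase II alpha, which untangles chromosomes, and Mki67 encodes the Ki-67 protein of mitotic chromosome surfaces; both RNAs build up through S phase and G2. Phf6 encodes a chromatin protein with PHD-like fingers that is mutated in blood cancers, and RUNX1 is a transcription factor needed for the formation of blood stem cells.

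The cells had the markers their label names. The selection itself fixed high Angpt1, Top2a and Mki67 and low Mpo, Pf4 and erythroid genes, so these values are a description. The median cell held 41 Angpt1, 23 Top2a and 12 Mki67 UMIs in KO and 38, 21 and 15 UMIs in WT. Few cells lay at the Angpt1, Top2a and Mki67 limits: 15 KO and 7 WT cells had exactly 3 Mki67 UMIs, while 19 KO and 21 WT cells that met all other criteria had 2. The Pf4 limit cut through a dense range, with 71 KO and 70 WT cells at 2 Pf4 UMIs inside and 56 KO and 45 WT cells at 3 UMIs outside. Of stem and progenitor genes not used in the selection, some were found in most members and others in fewer. Shares of cells with a gene are given at a common depth of 10000 UMIs, reached by random thinning of 232 KO and 180 WT cells. Meis1, a homeobox gene of stem cells, was found in 95.3% of KO and 96.7% of WT cells. The endothelial-type receptor gene Adgrl4 was found in 93.1% of KO and 87.8% of WT cells. Cd34, a surface protein of progenitors, was found in 83.2% of KO and 83.3% of WT cells, and the stem cell factor receptor Kit in 80.6% of KO and 79.4% of WT cells. Mecom was found in 45.3% of KO and 28.9% of WT cells, Flt3 in 22.8% and 14.4%, and Procr in 5.17% and 4.44%.

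The members held 6485161 UMIs in KO and 5744264 UMIs in WT, with a median of 26589 UMIs per KO cell and 31408 per WT cell. Mitochondrial genes took a median of 2.78% of UMIs in KO and 2.46% in WT, and ribosomal protein genes 25.4% and 26.8% of all UMIs. The libraries shared 10 cell barcodes, none of them in a member cell. Markers of another cell type, at 10 or more UMIs, were seen in 24 of 234 KO cells (10.3%, interval 6.68 to 14.9) and 11 of 182 WT cells (6.04%, 3.06 to 10.6). In 14 KO cells and 2 WT cells these were monocyte genes, and in 8 KO cells and 2 WT cells mast cell or basophil genes. The cells with monocyte markers had a median of 46476 UMIs in KO and 44234 in WT, above that of the members as a whole. A Scrublet score, which ranks cells by their likeness to simulated doublets, marked 15 KO and 5 WT members, among them 8 KO cells and 2 WT cells with monocyte markers.

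The first question was how common these cells were and how much of the Angpt1+ compartment was in cycle. Members made up 4.75% of KO cells (interval 4.17 to 5.38) and 3.87% of WT cells (3.34 to 4.46), a difference of 0.876 percentage points (Newcombe interval 0.0629 to 1.69). The Angpt1+ cells that met the Mpo, Pf4 and erythroid limits, in cycle or not, were 31.0% of KO cells (29.7 to 32.3) and 22.2% of WT cells (21.1 to 23.5). Within that compartment the members were 15.3% in KO (13.5 to 17.2) and 17.4% in WT (15.1 to 19.8). Cells with neither a Top2a nor a Mki67 UMI, called non-cycling here, were 51.0% of it in KO (48.5 to 53.6) and 37.9% in WT (34.9 to 40.9). Since WT cells were deeper, cells were also thinned to 10000 UMIs. This left out the shallower cells, 227 of 1528 in KO (14.9%) and 100 of 1046 in WT (9.56%). Of the cells that remained, 54.0% in KO (51.3 to 56.8) and 44.0% in WT (40.8 to 47.2) had neither gene. Both genes were found in 19.9% of them in KO (17.8 to 22.2) and 22.8% in WT (20.2 to 25.6). The part of the cells left out in these shares was not tested. The Angpt1+ cells within these limits were thus a larger share of KO cells, while the cycling share among them was no larger in KO. The Angpt1 limit alone kept 2665 of 4930 KO and 2379 of 4702 WT cells. Of cells that met the Angpt1, Top2a, Mki67 and Mpo limits, 488 in KO and 485 in WT, the Pf4 limit kept 248 and 194. That limit counts UMIs unscaled for depth, KO cells were shallower, and its part in these shares was not tested. Among all cells with 3 or more Top2a and Mki67 UMIs, the members were 18.8% in KO (16.7 to 21.1) and 13.7% in WT (11.9 to 15.7).

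The members spanned the cycle from S phase to mitosis in both libraries, and the order along it was the same. At 10000 UMIs the median cell held 57 UMIs of G1/S genes in KO and 59.5 in WT, and 96 UMIs of G2/M genes in KO and 85 in WT, with Top2a and Mki67 left out of both lists. Non-cycling Angpt1+ cells held 12 G1/S UMIs in KO and 12 in WT, and 15 and 16 G2/M UMIs. The quartiles of the members overlapped widely between libraries: 26 to 80 G1/S UMIs in KO and 30 to 77.3 in WT, and 60 to 165 G2/M UMIs in KO and 63 to 151 in WT. Across member cells the G1/S and G2/M sums ran against each other, with Pearson r = -0.70 over 232 KO cells and -0.71 over 180 WT cells; the sums of a cell share its fixed total of 10000 UMIs. When cells were cut into 3 ranges by the ratio of G2/M to G1/S UMIs, the lowest, middle and highest range held 75, 76 and 83 KO cells and 64, 62 and 56 WT cells. The highest range held 35.5% of KO cells (29.3 to 42.0) and 30.8% of WT cells (24.2 to 38.0), intervals that overlap.

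**Figure D1:**
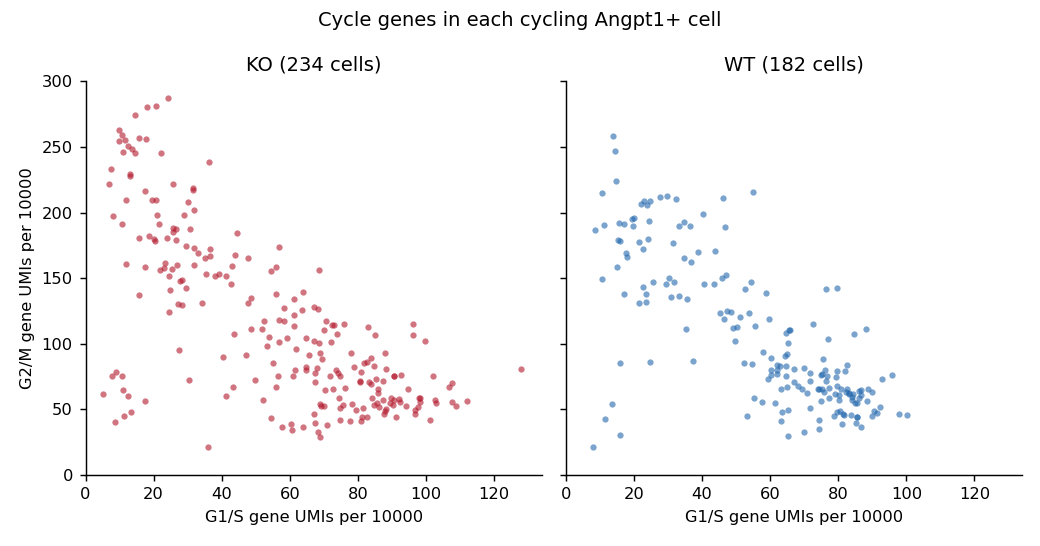
Each point is 1 cycling Angpt1+ cell, with the UMIs of G1/S genes per 10000 on the x axis and of G2/M genes per 10000 on the y axis, KO cells at left and WT cells at right. In both panels cells run from the lower right, with many G1/S and few G2/M UMIs, to the upper left, and a small group has few of both.

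Pcna, Ccnb1 and Cdc20 are in the lists whose sums defined the ranges, so their order across the ranges was fixed by the cut, and the levels are a description. Pcna, the gene of the DNA polymerase clamp and a G1/S gene, stood at 479, 378 and 95.3 CPM (counts per 1000000 UMIs) in the lowest, middle and highest range of KO cells and at 447, 379 and 112 CPM in those of WT cells. The cyclin B1 gene Ccnb1, which drives entry into mitosis, stood at 15.8, 26.0 and 189 CPM in KO and at 15.4, 31.0 and 201 CPM in WT. Cdc20, an activator of the anaphase-promoting complex, stood at 231 CPM in the highest KO range and 209 CPM in the highest WT range. The cyclin D1 gene Ccnd1 stood at 75.3 CPM in the lowest and 16.9 CPM in the middle KO range, and at 78.9 and 25.5 CPM in those of WT. Stem cell genes did not share 1 order across the ranges. Hlf, a transcription factor gene of stem cells, stood at 122, 222 and 284 CPM in KO and at 80.9, 138 and 186 CPM in WT, so that it was highest in the range nearest to mitosis in both libraries. Gata2 likewise stood at 96.1, 119 and 230 CPM in KO and at 113, 142 and 201 CPM in WT. Mecom, a transcription factor gene that keeps stem cells in being, stood at 166, 208 and 130 CPM in KO, lowest in the range nearest to mitosis. In WT it was near level, at 115, 116 and 109 CPM. These levels are per UMI of the range and were not tested.

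Against non-cycling Angpt1+ cells of the same library, the members carried a nearly complete proliferation programme. Members were chosen on 2 genes of this programme, so these ratios describe the members and nothing is concluded from their size. Of 8684 genes at a mean of 10 CPM or more, 700 (8.06%) were at least 1.5-fold higher and 433 (4.99%) at least 1.5-fold lower in members in both libraries. Of the G2/M list, 58 of 59 genes were higher in both libraries, with a median log2 ratio of 4.04 in KO and 4.14 in WT, beside medians over all genes of -0.06 and -0.06. The exception was Ctcf, at 0.54 in KO and 0.48 in WT. Of the kinetochore list, which holds the proteins that fix chromosomes to the spindle, 27 of 28 were higher, with medians of 3.46 and 3.40. Of the G1/S list 44 of 48 were higher, with medians of 1.97 and 1.75. Of the histone genes expressed in S phase 19 of 22 were higher, with medians of 2.98 and 2.93, and Hist1h3c stood at 184 CPM in KO members and 182 CPM in WT members, against 1.90 and 1.79 CPM in non-cycling cells. Ranked by the smaller of the ratios in the libraries, Nusap1, which bundles spindle microtubules, came first, with 241 CPM in KO members and 208 CPM in WT members, against 1.81 and 2.15 CPM in non-cycling cells. Kif15 (spindle motor), Pclaf (PCNA partner), Neil3 (DNA glycosylase), Ube2c (mitotic ubiquitin enzyme), Birc5 and Aurkb (chromosome passenger complex), Tpx2 (spindle assembly) and Tk1 (thymidine kinase) were also among the 12 highest.

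Among the cyclins, Ccnd2 and Ccnd3 were lower in members than in non-cycling cells. Ccna2, Ccnb1 and Ccnb2 belong to the 8 of 16 measured cyclin, kinase and inhibitor genes that were higher in members in both libraries. Ccnd2 was lower in members, by log2 -1.14 in KO and -1.02 in WT, and Ccnd3 by -0.73 and -0.81. Ccnd1 stood at -0.39 in KO and -0.87 in WT, under 1.5-fold in KO. The 12 genes with the lowest ratios are named here without a test of any shared theme. Junb, an AP-1 transcription factor gene, stood at 109 CPM in KO members and 107 CPM in WT members, against 350 and 342 CPM in non-cycling cells. Zfp36, whose product speeds mRNA decay, stood at 64.9 and 63.9 CPM in members, against 192 and 239 CPM. Ier2, Rhob, Nfkbiz, Ccl4, Neurl3, Slc2a3 and Kdm5b were also among the 12 lowest, with Pim1, Tox and Ly6a. The serine/threonine kinase gene Pim1 stood at 310 CPM in KO members and 182 CPM in WT members, against 740 and 425 CPM. Ly6a, which encodes the stem cell antigen Sca-1, stood at 42.1 and 28.2 CPM in members, against 108 and 73.5 CPM. Of the stem and progenitor list 0 of 22 genes were higher and 4 lower at 1.5-fold in both libraries, with medians of -0.50 in KO and -0.51 in WT. Of 36 interferon-response genes 15 were lower and 0 higher, with medians of -0.62 and -0.60. Non-cycling cells were shallower, at a median of 13197 UMIs in KO and 14057 in WT, and with both sets thinned to 10000 UMIs the counts of higher and lower genes stayed within 1.5 times of those given.

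Promoter sequences are shown for G2/M genes, the list with the highest ratio to non-cycling cells. RefSeq windows of build GRCm38.p6, from 250 bases before to 50 bases after a gene's start, were at hand for 51 of the 61 G2/M genes, in 57 windows. The letters TTTGAA or TTCGAA, the core of the cell cycle genes homology region, stood on either strand in 43 of the 57 windows (75.4%), against 19.2% of all 32851 windows and 14.6% of windows of genes at 10 CPM or more in the members. CCAAT together with one of these letter strings stood in 35 windows (61.4%), against 7.52% of all windows. For the G1/S and interferon lists fewer than 80% of genes had a window, 37 of 50 and 30 of 40, so a share over those lists is void and not given. The 3 windows that follow were chosen because they hold both letter strings, from the highest-ranked G2/M genes at 50 CPM or more with a single window; capitals mark these strings, where CCAAT on the other strand reads ATTGG. On the other strand TTTGAA reads TTCAAA, and TTCGAA reads the same. Bub1 encodes a spindle checkpoint kinase, Ckap2l a spindle protein and Hmmr a hyaluronan and spindle-binding protein.
Bub1 promoter, chr2:127831810-127832109, minus strand: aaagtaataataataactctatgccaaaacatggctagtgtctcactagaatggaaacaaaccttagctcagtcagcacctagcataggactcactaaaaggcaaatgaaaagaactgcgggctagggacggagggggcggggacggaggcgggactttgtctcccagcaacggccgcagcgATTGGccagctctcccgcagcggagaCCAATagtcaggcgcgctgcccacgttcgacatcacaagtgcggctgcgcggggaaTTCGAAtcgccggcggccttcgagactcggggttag
Ckap2l promoter, chr2:129297163-129297462, minus strand: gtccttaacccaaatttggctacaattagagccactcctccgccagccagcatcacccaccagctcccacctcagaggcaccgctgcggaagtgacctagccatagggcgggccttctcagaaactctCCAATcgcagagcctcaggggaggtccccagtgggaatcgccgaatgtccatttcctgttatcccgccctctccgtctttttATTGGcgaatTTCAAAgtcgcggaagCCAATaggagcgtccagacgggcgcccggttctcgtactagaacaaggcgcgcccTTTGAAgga
Hmmr promoter, chr11:40733388-40733687, minus strand: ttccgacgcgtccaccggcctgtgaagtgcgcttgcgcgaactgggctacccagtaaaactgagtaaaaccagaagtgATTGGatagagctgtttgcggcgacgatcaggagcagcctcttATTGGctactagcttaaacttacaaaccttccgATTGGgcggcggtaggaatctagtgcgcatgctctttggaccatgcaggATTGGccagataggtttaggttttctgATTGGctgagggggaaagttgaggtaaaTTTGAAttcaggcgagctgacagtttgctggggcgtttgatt
Bub1 stood at 54.0 CPM in KO members and 50.7 CPM in WT members, against 0.571 and 0.179 CPM in non-cycling cells. Ckap2l stood at 86.4 and 74.7 CPM in members, against 0.571 and 0.895 CPM, and Hmmr at 131 and 102 CPM, against 0.476 and 1.61 CPM. The window of Nusap1, the highest-ranked gene, holds neither letter string. A match in a window is a description of letters and not a bound site.

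Against cycling cells with high Mpo, a granule enzyme gene of the granulocyte and monocyte line, stem and progenitor genes and most megakaryocyte genes were higher in members. That set held 374 KO cells and 334 WT cells, with a median of 38323 and 40152 UMIs, and was taken whatever its Angpt1. Both Mpo and Angpt1 therefore separated the sets, so the ratios follow that selection in part and are a description. Of 8374 genes, 1481 (17.7%) were at least 1.5-fold higher and 625 (7.46%) at least 1.5-fold lower in members in both libraries, and the median over all genes was 0.20 in KO and 0.16 in WT. All 21 measured stem and progenitor genes were higher in both libraries, with medians of 2.77 in KO and 2.75 in WT. Mecom stood at 169 CPM in KO members and 114 CPM in WT members, against 3.96 and 2.98 CPM. Sox6, Meis1, Car2, Nrgn, Ctla2a, Prkg1, Slc22a3, Csgalnact1, Clnk and Stxbp4 were the other genes of the highest 12 beside Angpt1 itself. Of the megakaryocyte list 7 of 9 genes were higher, with medians of 3.43 and 3.50, and Itga2b, the integrin of platelets and early progenitors, stood at 199 and 206 CPM in members.

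Elane, which encodes neutrophil elastase and was among the 12 lowest ratios, stood at 35.2 CPM in KO members and 40.0 CPM in WT members, against 3520 and 4492 CPM in Mpo-high cells. S100a8, S100a9, Hp, Lcn2, Wfdc21, Trem3, Prg2, Gda, Dmkn and Rgcc were also in the lowest 12. Of 10 measured monocyte genes 10 were lower and of 11 primary granule genes 8. Of 16 genes of the unfolded protein response 10 were lower, with medians of -0.91 in KO and -0.67 in WT, and 8 of 16 glycolysis genes were lower, with medians of -0.87 and -0.73. Cycle genes were at least as high as in Mpo-high cells: 37 of 60 G2/M genes were higher and 0 lower in members, with medians of 0.88 and 0.71, while 2 of 50 G1/S genes were higher and 1 lower. The median member held 96 G2/M UMIs in KO and 85 in WT, against 61 and 62 in the Mpo-high cells. Both sets had to hold 3 Top2a and 3 Mki67 UMIs, a limit that is laxer per UMI for the deeper Mpo-high cells. Its part in the G2/M values was not tested. Lists of MYC targets and ribosome biogenesis had 0 of 23 and 0 of 26 genes called in either direction.

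**Figure D2:**
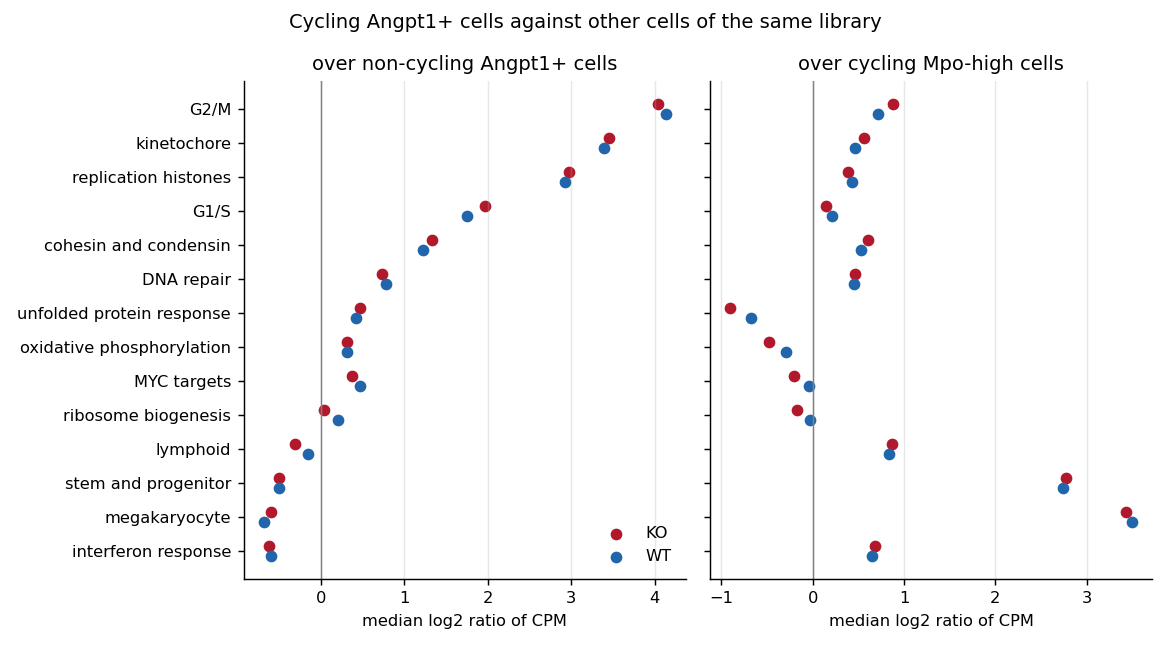
Median log2 ratios of CPM over gene lists (x axes), cycling Angpt1+ cells over non-cycling Angpt1+ cells at left and over cycling Mpo-high cells at right, with KO in red and WT in blue. Cycle lists lie far right of 0 in the left panel, while the stem and megakaryocyte lists lie right of 0 only in the right panel, and the libraries give near the same value for most lists.

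Within the members, genes of several blood lineages were detected side by side. Cpa3, a protease gene of mast cells and early progenitors, was found in 86.2% of KO cells and 84.4% of WT cells, against 23.1% and 23.3% of cells with 10 or more Pf4 UMIs, which served as background. Gata2 was found in 62.1% of KO and 61.7% of WT members, against 11.0% and 10.1% of cells high in Mpo and Elane. It was also found in 53.7% of KO and 51.4% of WT Pf4-high cells, and in 68.7% and 75.9% of non-cycling Angpt1+ cells. Gata2 is thus not particular to the members. Hlf was found in 123 of 232 KO cells (46.4 to 59.6%) and 100 of 180 WT cells (48.0 to 62.9%), against 17.9% and 21.3% of Pf4-high cells. Cpa3 was found in 102 of 123 KO cells with Hlf (82.9%) and 98 of 109 without (89.9%), and in 90 of 100 WT cells with Hlf and 62 of 80 without (77.5%), so that most cells with Hlf also had Cpa3 in both libraries. Flt3, a receptor gene of lymphoid-primed progenitors, went with Hlf in KO: Hlf was found in 38 of 53 KO cells with Flt3 (71.7%, interval 57.7 to 83.2) and in 85 of 179 without (47.5%, 40.0 to 55.1). In WT the counts were 16 of 26 (61.5%, 40.6 to 79.8) and 84 of 154 (54.5%, 46.3 to 62.6). Elane, at 19.8% of KO and 30.6% of WT members, did not exceed the Pf4-high cells, at 24.0% and 34.5%, and is read as background. That reading covers Elane alone. Of other genes of the neutrophil line, Prtn3 was found in 83.2% of KO and 83.9% of WT members. Ctsg was found in 34.9% and 36.7%, and Ms4a3 in 38.4% and 44.4%. No background share is given for these genes. The median depth before thinning was 22731 UMIs in KO and 25201 in WT Pf4-high cells, and 33670 and 32860 in cells high in Mpo and Elane.

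The targeted gene was lower in KO members. Phf6, which lies on the plus strand of chromosome X in GRCm38 from 52912266 to 52956943 (ENSMUSG00000025626), had a level of 30.2 CPM in KO and 63.7 CPM in WT, a log2 ratio of -1.08 (interval -1.33 to -0.82). The ratio was -1.07, -1.11 and -1.06 in the lowest, middle and highest cycle range. Since the deleted part is not named in the sources used here, a 3′ tag outside it would check nothing about the protein. Runx1 (ENSMUSG00000022952, chromosome 16, 92601466 to 92826149, minus strand) stood at 1435 CPM in KO and 1196 CPM in WT, at 0.26 (0.22 to 0.31). Native and vector-borne Runx1 were not told apart. Angpt1 (ENSMUSG00000022309, chromosome 15, 42424723 to 42676977, minus strand) stood at 1744 CPM in KO and 1662 CPM in WT, and its receptor gene Tek at 70.2 and 64.1 CPM.

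Over all genes, the KO members differed from the WT members more by higher than by lower genes. Of 8525 genes at a mean of 10 CPM or more, 448 (5.26%) were at least 1.5-fold higher and 119 (1.4%) at least 1.5-fold lower in KO, and the median log2 ratio was 0.06. Scaling by edgeR TMM factors moved all ratios by -0.08 and gave 327 higher and 180 lower genes. The cycle genes themselves were close: 0 of 50 G1/S genes and 0 of 61 G2/M genes passed 1.5-fold in either direction, with medians of -0.01 and 0.13. The kinetochore, cohesin and condensin, checkpoint, DNA repair and S-phase histone lists also had 0 genes past 1.5-fold, with medians between 0.03 and 0.11. Plk1, a mitotic kinase gene, had the largest ratio of the G2/M list, with 41.0 CPM in KO and 29.1 CPM in WT, at 0.50 (0.21 to 0.78).

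**Figure D3:**
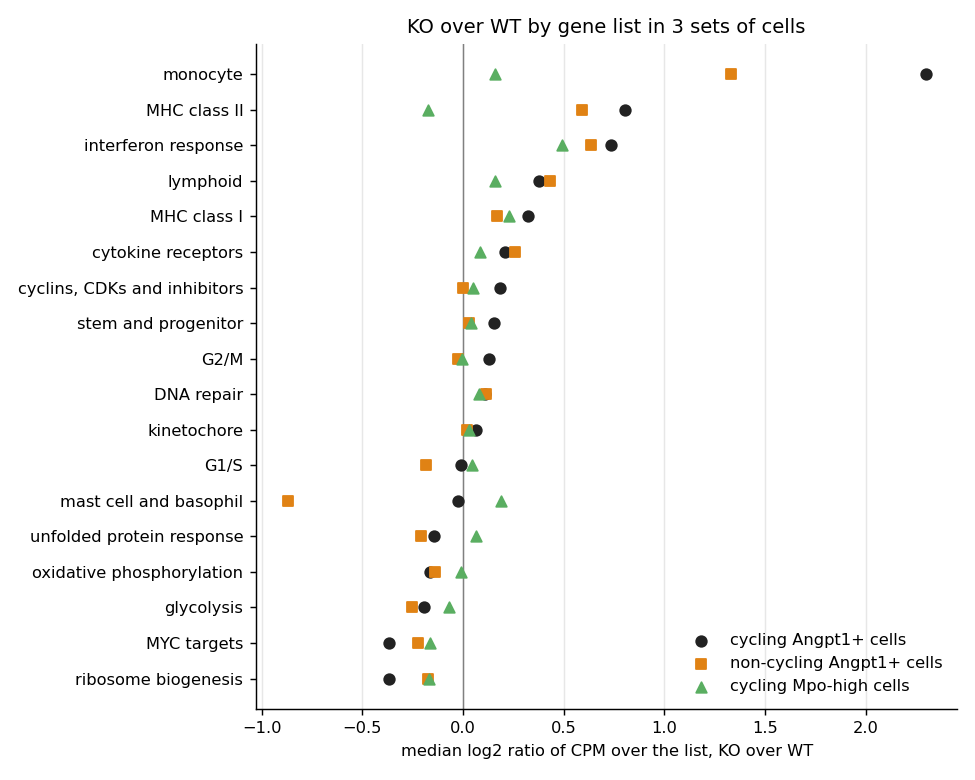
Median log2 ratio of CPM, KO over WT, over each gene list (x axis) in cycling Angpt1+ cells (black circles), non-cycling Angpt1+ cells (orange squares) and cycling Mpo-high cells (green triangles). Interferon response genes lie right of 0 and MYC target and ribosome biogenesis genes left of 0 in all 3 sets, cycle lists lie near 0, and the monocyte point of cycling Angpt1+ cells, at 2.30, rests on few cells.

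Interferon-response genes were higher in KO members. Of 34 measured genes 20 were at least 1.5-fold higher and 0 lower, beside 5.26% and 1.4% over all genes, 33 of 34 had a ratio above 0, and the median was 0.73. The summed level of the list was 2663 CPM in KO and 1883 CPM in WT. Stat2, a transcription factor gene of the interferon pathway, stood at 18.8 CPM in KO and 9.57 CPM in WT, and Irf7, a regulator of interferon genes, at 14.3 and 8.01 CPM. The immunity-related GTPase gene Iigp1 stood at 57.4 CPM in KO and 8.70 CPM in WT, at 2.72 (2.29 to 3.18), and Irgm1 and Igtp of the same family at 39.0 and 32.4 CPM in KO, against 21.9 and 18.1 CPM in WT. Isg15, a ubiquitin-like protein gene, stood at 27.1 and 15.8 CPM. Ifitm2 and Bst2, at 0.06 and 0.11, were among the members near 0, and Ifi47 was the single gene below 0, at -0.21. The interferon receptor genes stood near the all-gene median, with Ifnar1 at 0.17, Ifnar2 at 0.19 and Ifngr1 at -0.07. Without the cells that carried markers of another cell type, 15 of 34 genes were higher and 0 lower, with a median of 0.51. The same list had a median of 0.63 in non-cycling Angpt1+ cells and 0.49 in cycling Mpo-high cells, so higher values were also seen outside the members.

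Among genes that sense or present antigen, the class II genes H2-Aa, H2-Eb1, H2-Ab1 and Cd74 were higher in KO members and the class I genes only slightly so. H2-Aa stood at 64.0 CPM in KO and 15.1 CPM in WT, at 2.08 (1.74 to 2.43), and was found in 30.6% of KO cells (24.7 to 37.0) and 12.2% of WT cells (7.82 to 17.9) at 10000 UMIs, against 5.96% and 4.26% of Pf4-high cells. Cd74, the invariant chain, was found in 19.4% of KO cells (14.5 to 25.1) and 3.33% of WT cells (1.23 to 7.11), and 84 of its 134 WT UMIs came from 1 cell. Of 7 measured class II genes 4 were higher and 0 lower, beside 5.26% and 1.4% over all genes, with a median of 0.80 in members, 0.59 in non-cycling Angpt1+ cells and -0.18 in Mpo-high cells. Of the dendritic cell list 3 of 6 genes were measured, of which the class II genes H2-Aa and Cd74 were higher in KO and Bst2 was not called, with a median of 1.21. Its summed level was 242 CPM in KO and 149 CPM in WT, Siglech of plasmacytoid dendritic cells was found in 0.431% of KO cells and 0% of WT cells, and the part of dendritic cells in the class II values was not tested. Of 12 class I genes 0 passed 1.5-fold, with a median of 0.32, and B2m, the shared light chain, stood at 1796 CPM in KO and 1346 CPM in WT, at 0.42. The 2 interferon-response windows that follow were chosen because they hold the motif. They were taken in falling order of KO over WT ratio from list genes at 50 CPM or more with a single window. The second, Gbp7, lies near the list's median at that level, 0.38, and not among its highest ratios. The motif is the core of the interferon-stimulated response element, in which GAAA comes again after any 2 bases, on either strand; capitals mark it, and it stands in 3.44% of all windows.
Ifitm3 promoter, chr7:141010695-141010994, minus strand: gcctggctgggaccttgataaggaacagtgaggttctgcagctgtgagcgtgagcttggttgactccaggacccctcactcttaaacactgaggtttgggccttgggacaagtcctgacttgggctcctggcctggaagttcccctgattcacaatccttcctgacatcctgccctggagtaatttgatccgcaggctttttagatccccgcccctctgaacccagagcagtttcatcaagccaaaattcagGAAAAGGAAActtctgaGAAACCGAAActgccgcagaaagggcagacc
Gbp7 promoter, chr3:142530086-142530385, plus strand: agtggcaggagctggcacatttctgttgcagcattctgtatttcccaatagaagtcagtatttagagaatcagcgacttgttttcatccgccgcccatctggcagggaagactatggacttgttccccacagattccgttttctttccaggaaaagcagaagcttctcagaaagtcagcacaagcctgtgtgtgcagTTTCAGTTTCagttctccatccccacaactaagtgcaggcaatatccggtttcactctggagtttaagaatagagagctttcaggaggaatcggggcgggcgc
Ifitm3, a membrane protein gene that blocks virus entry, stood at 325 CPM in KO and 179 CPM in WT, at 0.86 (0.75 to 0.97). Gbp7, a guanylate-binding protein gene, stood at 77.4 CPM in KO and 59.4 CPM in WT, at 0.38 (0.18 to 0.59), under 1.5-fold.

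Stem and progenitor genes split between a few that were higher in KO members and more that were near the level in WT. Hlf stood at 208 CPM in KO and 132 CPM in WT, at 0.65 (0.52 to 0.78), with 0.59, 0.69 and 0.61 in the 3 cycle ranges. The share of cells with Hlf was close in both, with intervals that overlap. Mecom stood at 169 CPM in KO and 114 CPM in WT, at 0.57 (0.43 to 0.72), and was found in 45.3% of KO cells (38.7 to 51.9) and 28.9% of WT cells (22.4 to 36.1). Ifitm1, which is on both the stem and the interferon list, stood at 156 CPM in KO and 63.4 CPM in WT, and was found in 57.8% of KO cells (51.1 to 64.2) and 25.6% of WT cells (19.4 to 32.6), against 26.2% and 18.5% of Pf4-high cells. In all, 3 of 22 stem genes, Ifitm1 and Hlf among them, were at least 1.5-fold higher and 0 lower, beside 5.26% and 1.4% over all genes, with a median of 0.15. With TMM factors 2 of 22 were higher, and Hlf, at 0.57, was no longer called, while without the cells that carried markers of another cell type 6 were higher. Meis1, Gata2, Kit, Cd34, Tek, Lmo2, Tal1 and Myct1 had ratios between -0.13 and 0.16. In non-cycling cells Mecom had a ratio of 0.01 and Hlf of 0.34.

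**Figure D4:**
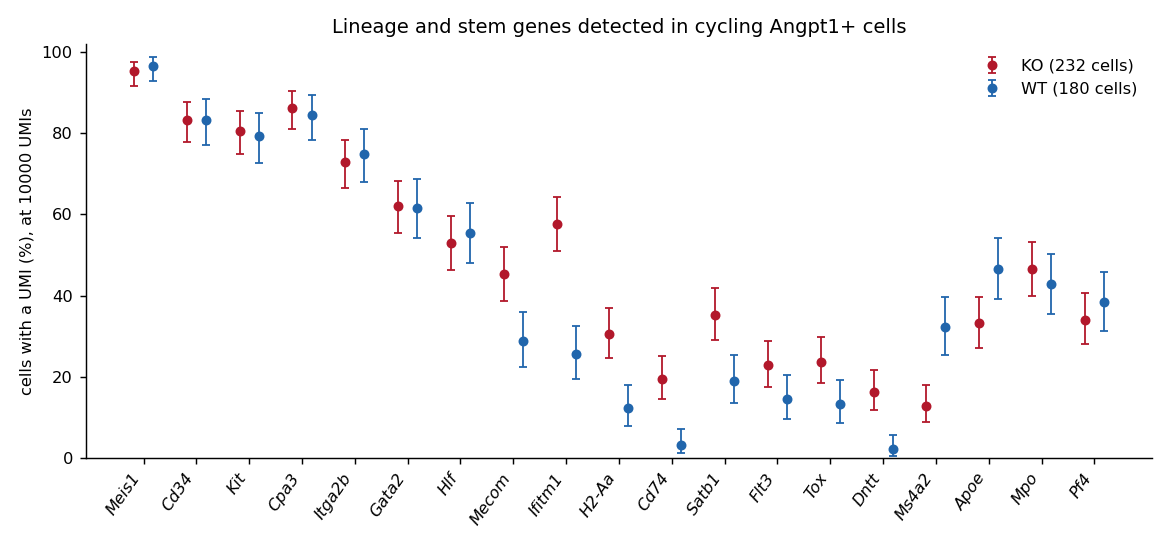
Percent of cycling Angpt1+ cells with at least 1 UMI of each gene after thinning to 10000 UMIs (y axis), for 232 KO cells in red and 180 WT cells in blue, with exact 95% intervals as bars. Meis1, Cd34, Kit and Cpa3 are found in most cells of both libraries, Ifitm1, Cd74 and Dntt in more KO cells, and Ms4a2 in more WT cells.

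Of the lymphoid list, Dntt, Satb1, Lsp1, Bcl11a and Tcf4 were detected in more KO members and Ighm in fewer, with intervals that do not overlap. Dntt, which encodes terminal deoxynucleotidyl transferase, was found in 16.4% of KO cells (11.9 to 21.8) and 2.22% of WT cells (0.609 to 5.59), against 1.54% and 0.608% of Pf4-high cells. Its level rested on few cells, since 108 of 273 KO UMIs and 83 of 100 WT UMIs came from 1 cell each. Satb1, a chromatin organiser gene of lymphoid cells, stood at 68.5 CPM in KO and 32.0 CPM in WT, at 1.10 (0.84 to 1.35). It was found in 35.3% of KO cells (29.2 to 41.9) and 18.9% of WT cells (13.4 to 25.4). Its share was 5.96% and 2.43% in Pf4-high cells, but 28.3% and 22.6% in cells high in Mpo and Elane, so it is not particular to the members. Tox, a nuclear protein gene of T cell development, stood at 64.5 CPM in KO and 18.1 CPM in WT, at 1.83 (1.52 to 2.16). Flt3 was found in 22.8% of KO cells (17.6 to 28.8) and 14.4% of WT cells (9.66 to 20.4), intervals that overlap. Non-cycling Angpt1+ cells differed the same way, with Dntt in 20.1% of KO and 4.75% of WT cells. There Satb1 was found in 42.7% and 27.8%, and Flt3 in 29.3% and 15.5%. Of 14 measured lymphoid genes 6 were higher and 1 lower in KO, beside 5.26% and 1.4% over all genes, with a median of 0.38. The lower gene was Ighm, at 25.8 CPM in KO and 795 CPM in WT, where 5 cells held 95.6% of the WT UMIs. It was found in 14.2% of KO cells (10.0 to 19.4) and 32.2% of WT cells (25.5 to 39.6). In WT a single member held 423 of 500 UMIs of Jchain and 9614 of 10047 UMIs of Igkc, both antibody genes of plasma cells. Jchain was found in 1.29% of KO and 16.7% of WT members, beside 0.771% and 11.2% of cells high in Mpo and Elane. Without the cells that carried markers of another cell type, 4 of 13 lymphoid genes were higher and 1 lower, with a median of 0.38. The lymphoid list had a median of 0.43 in non-cycling Angpt1+ cells and 0.16 in cycling Mpo-high cells. Higher lymphoid values in KO were thus also seen outside the members.

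MYC target and ribosome biogenesis genes were slightly lower in KO members. All 23 measured MYC targets and all 26 ribosome biogenesis genes had a ratio below 0, with medians of -0.37 and -0.37, beside 0.06 over all genes, but only 1 gene of each list, Srm and Rrp9, was at least 1.5-fold lower, beside 1.4% over all genes. With TMM factors 4 of 23 MYC targets were lower, and without the cells that carried markers of another cell type 0 of 26 ribosome biogenesis genes were. Srm, the spermidine synthase gene, which stands in the MYC list, stood at 68.9 CPM in KO and 120 CPM in WT, at -0.80 (-0.97 to -0.62). Ncl, the gene of the nucleolar protein nucleolin, stood at 825 CPM in KO and 1122 CPM in WT, at -0.44, and Npm1 at 1486 and 1866 CPM. The summed level of the MYC list was 6370 CPM in KO and 8252 CPM in WT. In non-cycling Angpt1+ cells the medians were -0.22 and -0.17, and in Mpo-high cells -0.17 and -0.17. Myc itself stood at 79.6 CPM in KO and 73.6 CPM in WT. Glycolysis, oxidative phosphorylation and unfolded protein response genes had medians of -0.19, -0.16 and -0.14, with 0 genes past 1.5-fold, and Calr, an endoplasmic reticulum chaperone gene, stood at 632 CPM in KO and 902 CPM in WT, at -0.51. Ribosomal protein genes took 25.4% of UMIs in KO members and 26.8% in WT members.

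Of the cyclins, kinases and inhibitors, Ccnd3 differed most. The cyclin D3 gene (ENSMUSG00000034165, chromosome 17, 47505051 to 47599691, plus strand) stood at 221 CPM in KO and 142 CPM in WT, at 0.63 (0.51 to 0.76), and was higher in each cycle range, by 0.52, 0.48 and 0.83. It was found in 82.8% of KO cells (77.3 to 87.4) and 72.2% of WT cells (65.1 to 78.6). Ccnd1 and Ccnd2 had ratios of -0.27 and -0.25, and Cdk4, a partner of these cyclins, of -0.37. Cdkn1a, the p21 gene, stood at 11.1 CPM in KO and 13.2 CPM in WT, and Cdkn2a, the gene of p16 and p19, at 1.08 and 2.26 CPM. In all, 1 of 18 genes was higher and 0 lower, near the 5.26% and 1.4% over all genes. With TMM factors, where Ccnd3 stood at 0.55, 0 of 18 were higher. Of 10 measured p53 targets 2 were higher, Pmaip1 and Trp53inp1, at 1.06 and 0.69, and 0 lower, beside the same shares over all genes. In non-cycling cells Pmaip1 stood at -1.46. Of 19 cytokine receptor genes 7 were higher and 0 lower, beside 5.26% and 1.4% over all genes, with a median of 0.21. The transforming growth factor beta receptor gene Tgfbr1 stood at 110 CPM in KO and 52.1 CPM in WT, at 1.08 (0.89 to 1.28), and Il6st, the shared chain of interleukin-6 type receptors, at 39.0 and 12.2 CPM. Without the cells with markers of another cell type, 3 of 17 receptor genes were higher and 1 lower.

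Among genes at a mean of 50 CPM or more, the largest ratios were of genes whose KO UMIs lay mostly in a few cells, such as Mcpt8 and Prss34. The basophil protease genes Mcpt8 and Prss34 stood at 326 and 412 CPM in KO, against 8.36 and 11.7 CPM in WT, at 5.29 and 5.14. In KO, 5 cells held 1870 of 2117 Mcpt8 UMIs and 2579 of 2670 Prss34 UMIs, and 207 and 222 of 234 cells had none. All 9 measured monocyte genes were higher in KO, with a median of 2.30. Measured genes reach a mean of 10 CPM over both libraries, which a high KO level alone can give, so this count is a description. With likely doublets removed only 5 were measured. In non-cycling Angpt1+ cells 5 of 5 measured monocyte genes were at least 1.5-fold higher in KO, with a median of 1.33. In cycling Mpo-high cells 0 of 11 were, with a median of 0.16. These counts are a description for the same reason. F13a1, the gene of a coagulation factor subunit and 1 of the monocyte markers used here, stood at 127 CPM in KO and 20.7 CPM in WT. It was found in 10.3% of KO and 8.89% of WT members. Its share in Pf4-high cells was 19.6% and 19.9%, and that set is not read as background for this gene. The lysozyme gene Lyz2 stood at 591 and 120 CPM, with 2298 of 3834 KO UMIs in 5 cells, and Slpi at 113 and 35.3 CPM. Without the 5 highest cells of each library the log2 ratios were 3.77 for Mcpt8, 4.01 for Prss34, 2.90 for F13a1 and 2.27 for Slpi. Without the cells that carried markers of another cell type, 4 monocyte genes were measured, of which 2 were at least 1.5-fold higher, with a median of 0.52, while Mcpt8 and Prss34 had ratios of -0.64 and -2.08. Mcpt8, Prss34, F13a1, Ly6c2 and Ccr2 were among the markers by which these cells were picked, so lower values of those genes follow from the removal and show nothing more. The part of doublets in these values was not tested.

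The next genes by ratio were spread over many cells. Pbx3, a homeobox gene that partners Meis1 (ENSMUSG00000038718, chromosome 2, 34171457 to 34373142, minus strand), stood at 298 CPM in KO and 135 CPM in WT, at 1.14 (1.02 to 1.27), and at 1.21 without the 5 highest cells of each library. Commd10 stood at 81.7 CPM in KO and 28.9 CPM in WT, with an interval of 1.25 to 1.76 on its log2 ratio, and Chchd7 at 97.8 and 43.3 CPM. The host transcript Mir99ahg of a microRNA cluster stood at 167 CPM in KO and 74.7 CPM in WT, the histone deacetylase gene Hdac9 at 165 and 74.2 CPM, and Mamdc2 at 79.3 and 35.2 CPM. Pbx3 had ratios of 1.08 in non-cycling and 1.12 in Mpo-high cells, while Hdac9 had 0.58 and 0.11.

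Apoe, Cd63 and Ms4a2 were among the 12 lowest ratios at 50 CPM or more. Apoe, a lipid carrier gene, stood at 116 CPM in KO and 211 CPM in WT, at -0.86 (-0.99 to -0.73), and was found in 33.2% of KO cells (27.2 to 39.7) and 46.7% of WT cells (39.2 to 54.2), beside 24.6% and 45.4% of Pf4-high cells. Cd63, a tetraspanin of granule membranes, stood at 165 CPM in KO and 293 CPM in WT, at -0.83. Ms4a2, the beta chain gene of the IgE receptor, stood at 67.8 and 125 CPM, at -0.89, and was found in 12.9% of KO cells (8.90 to 17.9) and 32.2% of WT cells (25.5 to 39.6), against 3.08% and 2.58% of Pf4-high cells. Cpa3, which is shared by mast cells and early progenitors, stood at 800 CPM in KO and 908 CPM in WT, at -0.18. Of 9 measured genes of the mast cell and basophil list 3 were higher in KO, Mcpt8, Prss34 and Hdc, and Ms4a2 was lower. The median was -0.02, and over all genes 5.26% were higher and 1.4% lower. Sdsl, Atrnl1, Bri3bp, Luzp2, Mospd3, Mtap, Alkbh1 and Adgrl2 made up the rest of the lowest 12 with Srm, with ratios from -0.97 to -0.61. Of the lists not yet described, 2 of 10 megakaryocyte genes were higher and 1 lower, and 0 of 7 erythroid genes higher and 1 lower. Of 14 genes of Phf6 and its NuRD partners 0 were higher and 1, Phf6 itself, lower. These counts stand beside the same 5.26% and 1.4% over all genes.

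**Figure D5:**
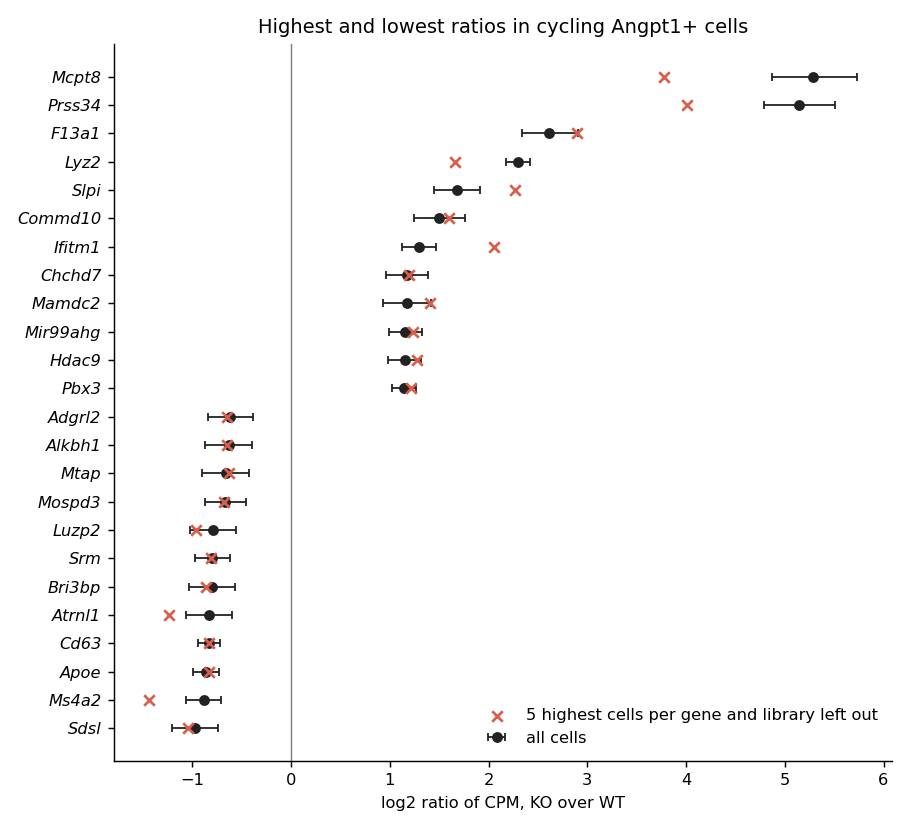
Log2 ratio of CPM, KO over WT, in cycling Angpt1+ cells (x axis) for the 12 genes with the highest and the 12 with the lowest ratio above a mean of 50 CPM, with exact 95% counting intervals as bars and crosses for the ratio without the 5 cells that held most UMIs of the gene in each library. Mcpt8 and Prss34, at 5.29 and 5.14, stand far from the other genes, and Pbx3 lies at 1.14 with all cells and 1.21 without those 5.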

How the data were processed

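Single-cell RNA of GFP+Lin- bone marrow cells was measured in 1 KO and 1 WT library. The deposited counts are UMIs per gene and cell barcode in filtered matrices, made by the authors with Cell Ranger 6.0.2 per the file headers. Per the submitters' processing notes the version was 3.0.1 and the build GRCm38; for the gene annotation, the release used was not given in the sources used here. No deposited column lacked a sample (0 unmapped columns).

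Barcodes with at least 500 genes and at most 10% mitochondrial UMIs were kept, 4930 of 5260 in KO and 4702 of 5287 in WT. For each library and set of cells, summed UMIs of a gene were divided by the total and scaled to 1000000 (CPM). A gene was called higher or lower at 1.5-fold and a mean of at least 10 CPM. Log2 ratios carry exact conditional binomial intervals and shares carry Clopper-Pearson intervals, at 95%; the difference of shares carries a Newcombe interval. PCR duplicates are removed by UMIs, but intervals and floors cover counting error only. No test was run, because each genotype has 1 library and cells are not replicates. The ratio and interval scripts were tested on simulated data. Likely doublets, the top Scrublet scores, were kept in the values given and removed as an alternative.

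The genes named are the 12 highest and 12 lowest ratios at 50 CPM or more in each comparison, without mitochondrial, ribosomal protein, haemoglobin, X-inactivation, Y-linked, immunoglobulin, T cell receptor and predicted genes, up to 4 genes of each of 35 lists, all genes of some lists, Phf6 and Runx1; a few others were chosen after their values were seen. The members and lists were chosen with earlier results of these data known. Alternatives changed the cell filter, each criterion, the scaling (edgeR TMM, median of ratios), the minimum level, the weight of cells and the depth. Python 3.11.15, scanpy 1.11.5, scipy 1.17.1, R 4.3.3 and edgeR 4.0.16 were used.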

Additional observations from a re-analysis of the deposited data

Results flagged for a closer look

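The following 4 genes had KO over WT log2 ratios of opposite sign in cycling and non-cycling Angpt1+ cells, which is what brought them here; the difference between the sets was not tested. Mcpt8 stood at 5.29 in cycling and -1.16 in non-cycling cells, and Prss34 at 5.14 and -1.78. Hdc, the histidine decarboxylase gene of basophils and mast cells, stood at 0.66 and -1.27. Pmaip1, a pro-death gene of the p53 pathway, stood at 1.06 and -1.46. Mast cell or basophil markers at 10 or more UMIs were found in 8 KO and 2 WT cycling cells and in 24 KO and 28 WT non-cycling cells, and without the 24 KO and 11 WT cycling cells with markers of any other cell type the cycling ratios of Mcpt8, Prss34 and Hdc were -0.64, -2.08 and -1.57. Mcpt8 and Prss34 were among the markers by which those cells were picked, so their lower values follow from the removal.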

How the results depend on the processing

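Headline values were member shares, counts of called genes, cycle positions and the medians of selected lists. Of their alternatives, 229 stayed within the spread or within 1.5 times and 18 moved. For all other values, such as single genes and further lists, 3818 stayed, 276 moved and 6 turned sign. Requiring 6 UMIs of Top2a and Mki67 gave member shares of 3.77% in KO and 3.08% in WT, and allowing up to 9 Pf4 UMIs, chosen after seeing the data, gave 7.04% and 6.47%. Against 448 higher and 119 lower genes, TMM factors gave 180 lower and the median of ratios 324 higher and 180 lower. A minimum of 50 CPM gave 82 higher and 19 lower, and no minimum gave 2284 and 1346, where fewer or more genes were counted. At 50 CPM the interferon median was 0.38 and the class II median 0.43. The monocyte median, 2.30 over 9 measured genes, was 1.85 over 5 measured genes without likely doublets. It was 1.57 at 3 Angpt1 UMIs and 3.86 at Mpo under 5 per 10000. Without cells with markers of another cell type it was 0.52 over 4 measured genes. With the wider Pf4 limit it was 0.88, and without the 5 highest cells per gene 2.73. The last 3 were chosen after seeing the data, and the cause was not tested. Among values past 1.5-fold, signs turned for the plasma list without doublets (0.057), for Mcpt8 (-0.64), Prss34 (-2.08), Hdc (-1.57) and Cebpa (-0.057) without cells with other markers, and for Hdc (-0.24) without the 5 highest cells. Values near 0 turned more often: without cells with other markers the neutrophil granule median, 0.08, was -0.24, and with TMM factors the kinetochore median, 0.06, was -0.02 and the checkpoint median, 0.05, was -0.03, while Gata2 ran from -0.22 to 0.12 and Cd200r3 from -3.28 to 0.44. Over 18 settings the medians ran from 0.38 to 0.76 for interferon, from 0.26 to 0.51 for lymphoid, from 0.07 to 0.23 for stem, from -0.45 to -0.34 for MYC target and from -0.45 to -0.31 for ribosome biogenesis genes. No paired analysis was possible because each genotype has 1 library. With 1 library per genotype, differences between mice, sorts or runs and the effect of genotype cannot be told apart, and 182 to 234 cells limit what can be said of genes under 10 CPM.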
